A study of Mus musculus with 7 samples.

Results

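A set of 8660 distal open chromatin regions, called in Dll1- but not in Dll1+ mouse mammary tumor cells and carrying a perfect AP-1 site beside the summit, was examined among 119215 regions in all. The regions came from ATAC-seq, in which a transposase inserts sequencing adapters into accessible DNA. The tumors were spontaneous mammary tumors of MMTV-PyMT mice, whose polyoma middle T oncogene is driven from the mouse mammary tumor virus promoter, and all of the mice, on a C57BL/6 background, also carried a Dll1-mCherry reporter on a bacterial artificial chromosome, which marks cells that transcribe the Notch ligand Dll1. Tumor cells were sorted into mCherry+ cells, called Dll1+ (3 samples), and mCherry- cells, called Dll1- (4 samples), from 4 tumors, 3 of which gave both populations. Cells with CD45, CD31 or Ter119, which mark leukocytes, endothelium and the erythroid lineage, had been sorted out, and fibroblasts carry none of these. The ages of the mice were not given in the sources used here. The files hold 1 pooled peak list per population, so that no value below has a replicate error and no difference between the populations could be tested over samples. The intervals given are 95% Wilson intervals that cover counting error only, and regions are neither replicates nor independent of their neighbors.

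AP-1 is a family of dimeric transcription factors built from Fos, Jun and related leucine zipper proteins, which answer to growth factor and stress signals. Its classical target is a palindrome around a single central base, the TPA response element (TRE), and many AP-1 sites lie in enhancers far from promoters. In mammary tissue AP-1 factors are known to act downstream of ErbB and MAP kinase signaling.

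The members were selected on measured values. Rows of both lists that overlapped or touched were joined, which gave 29318 regions with rows of the Dll1- list only. Of these, 27682 had a midpoint over 1000 bp from every protein-coding transcription start site (TSS) and are called distal, and 8660 of the distal regions held a TRE (TGACTCA or TGAGTCA, which are the same site read on opposite strands) wholly within 100 bp of the summit of their strongest row. A further 259 Dll1- only regions with a TRE lay nearer to a TSS and were left out. The membership in a list and the site therefore define the set and are not findings about it. Over all 102822 distal regions, 26.9% were called only in the Dll1- list, 19.9% held a TRE and 8.42% were members. Members covered 2859 kb in total.

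Sequences of 6 of the strongest members by fold enrichment are shown first, since they are the plainest cases of a strong region with rows of the Dll1- list only. Each line gives the gene of the nearest protein-coding TSS, the GRCm38 position and the TRE in capitals with 25 bases on each side. A second TRE that falls in the same stretch, as near Lrrn3, is in capitals too.
Tor3a, chr1:156667596-156667652, plus strand: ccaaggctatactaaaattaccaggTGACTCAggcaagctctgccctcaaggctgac
S100z, chr13:95471077-95471133, plus strand: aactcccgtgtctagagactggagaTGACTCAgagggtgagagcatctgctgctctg
Cldn14, chr16:93927716-93927772, plus strand: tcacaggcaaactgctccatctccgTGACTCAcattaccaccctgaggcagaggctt
Lrrn3, chr12:41949887-41949943, plus strand: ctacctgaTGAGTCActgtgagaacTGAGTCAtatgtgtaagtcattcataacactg
Pcnx, chr12:81831235-81831291, plus strand: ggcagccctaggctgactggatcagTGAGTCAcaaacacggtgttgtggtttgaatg
Ldah, chr12:8181872-8181928, plus strand: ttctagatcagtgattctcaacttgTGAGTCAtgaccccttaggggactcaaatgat

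These 6 members held 118 to 140 reads at the summit, and a TRE 11 to 42 bp from it. The next 3 sequences are whole windows of 201 bases, centered on the summit, from members with the most TREs, again with every TRE in capitals. They are shown because their sites recur at a fixed distance.
Foxa2, chr2:147744022-147744222, plus strand: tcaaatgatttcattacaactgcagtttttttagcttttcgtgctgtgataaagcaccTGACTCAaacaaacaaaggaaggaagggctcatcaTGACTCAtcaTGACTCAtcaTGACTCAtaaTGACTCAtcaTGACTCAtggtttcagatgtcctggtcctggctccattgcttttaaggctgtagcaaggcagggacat
Nsmf, chr2:25035037-25035237, plus strand: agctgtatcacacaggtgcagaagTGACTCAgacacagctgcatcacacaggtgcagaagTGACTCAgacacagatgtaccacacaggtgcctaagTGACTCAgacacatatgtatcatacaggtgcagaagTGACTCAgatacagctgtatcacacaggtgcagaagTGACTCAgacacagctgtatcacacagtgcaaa
Hfm1, chr5:106853367-106853567, plus strand: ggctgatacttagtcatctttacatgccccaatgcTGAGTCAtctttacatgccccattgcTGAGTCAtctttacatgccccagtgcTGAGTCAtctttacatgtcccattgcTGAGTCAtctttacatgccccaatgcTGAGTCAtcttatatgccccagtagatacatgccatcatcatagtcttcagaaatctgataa

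The Foxa2 window, 301722 bp from the TSS of the pioneer factor Foxa2, held 6 TREs, with 4 of the steps between neighboring sites 10 bp long. The Nsmf window held 5 TREs at steps of 36 bp throughout, and the Hfm1 window held 5 TREs at steps of 26 bp throughout. In the Nsmf and Hfm1 windows the letters between the capitals are largely repeated from site to site. Members whose nearest TSS is that of a gene of AP-1 itself are given as the last set, again with 25 bases on each side of the TRE nearest to the summit.
Jun, chr4:95203751-95203807, plus strand: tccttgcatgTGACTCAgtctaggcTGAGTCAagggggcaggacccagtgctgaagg
Fos, chr12:85519700-85519756, plus strand: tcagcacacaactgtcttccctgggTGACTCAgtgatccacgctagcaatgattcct
Fosl2, chr5:32000533-32000589, plus strand: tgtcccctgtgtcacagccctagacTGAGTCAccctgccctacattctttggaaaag

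The Jun stretch holds a pair of TREs, and Jun is a defining subunit of AP-1, as is Fos. The members shown lay 151549 bp (Jun), 45872 bp (Fos) and 135207 bp (Fosl2) from the TSS of the gene. Fosl2 encodes the Fos family member Fra-2.

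The strength of a region is given as the fold enrichment of its summit over the local background, and as the percentile of that fold within its own list, so that the lists can be set side by side. Members had a median fold enrichment of 4.15, with quartiles of 3.37 and 5.37 and a highest value of 16.2. Their median percentile was 38.7, which places the typical member in the weaker part of the Dll1- list. Dll1- only distal regions without a TRE were weaker still, with a median fold of 3.68 and a median percentile of 31.2. Shared distal regions with a TRE, which have rows of both lists, stood at a median percentile of 78.9. Members had a median width of 299 bp, and 92.7% of them consisted of a single row. Dll1- only regions without a TRE were alike (287 bp and 89.9%), as were Dll1+ only regions with a TRE (275 bp and 91.8%). Shared regions with a TRE had a median width of 532 bp. Shared regions join rows of both lists, which by itself makes them wider.

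The number of reads behind a summit and the background expected there were recovered from the fold enrichment and the p-value of each row. Members had a median of 39 reads at the summit, with quartiles of 30 and 54, over a median background of 7.20 reads. The lowest member held 14 reads and the highest 267 reads. Rows at the floor of the background stood at 7.20 reads in the Dll1- data but at 3.74 in the Dll1+ data, 1.93 times lower, so the pooled Dll1- data were the deeper ones. A region can therefore be called in the Dll1- list alone because it lay under the calling limit in the Dll1+ data, and the absence of a Dll1+ row does not show closed chromatin. The Dll1- list also pools a tumor that gave no Dll1+ sample. A region open in that tumor alone would be called Dll1- only as well, which the pooled lists cannot tell apart.

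The reads and background of each member were scaled by the ratio of the background floors, which matches the lists in that value only and not in their ratio of signal to background or their calling limits. The median -log10 p fell from 14.5 as deposited to 7.74 after scaling, and 8629 members (99.6%) stayed over the lowest value in the Dll1+ list, which was 2. A total of 3319 members (38.3%) stayed over 9.23, the median of the Dll1+ only distal regions, as did 24.2% of the Dll1- only distal regions without a TRE. Among the 7913 Dll1- only distal regions over that limit, 41.9% (40.9 to 43.0%) held a TRE. Most members thus lay under that limit after scaling.

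The share of regions with a TRE was higher in stronger bins of the Dll1- only class. Fold enrichment also picked the summit at which the site was sought, so these values are a description. It was 21.9% (20.9 to 22.9%) in the lowest 20 percentiles of the list, 29.4% and 35.3% in the next bins, 46.7% (44.9 to 48.6%) between percentiles 60 and 80, and 65.4% (59.6 to 70.9%) in the top 20, where there were 269 regions. In shared regions, binned by their percentile in the Dll1- list, it ran from 5.61% to 26.6%. In the Dll1+ only class the share stayed between 1.84% and 7.27%, and the highest of these values rested on 4 of 55 regions. The plot of TRE share by strength gives all bins, and since list and site define the members it is a description only.

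**Figure D1:**
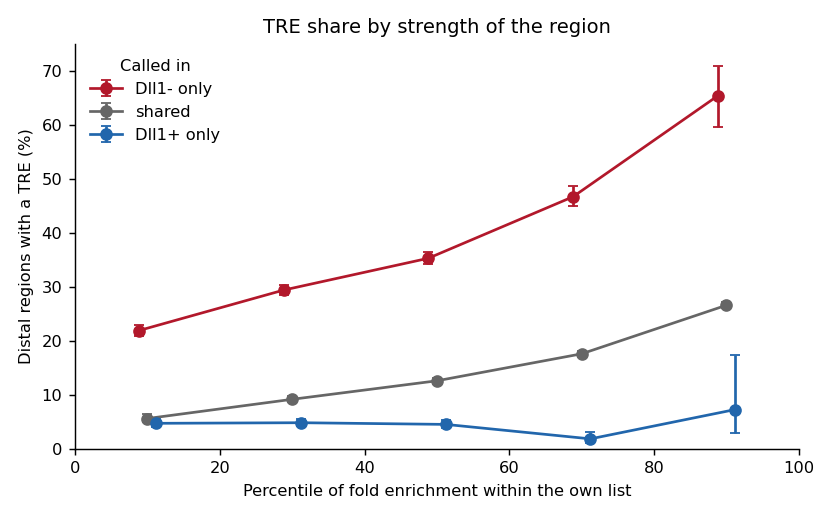
Percent of distal regions with a TRE within 100 bp of the strongest summit (y axis) in bins of 20 percentiles of fold enrichment within the own list (x axis), for regions called in the Dll1- list only, in both lists, or in the Dll1+ list only. Regions in both lists are binned by their percentile in the Dll1- list, while their strongest summit can come from either list. Points are shares and bars 95% Wilson intervals. The Dll1- only share runs from 21.9% to 65.4%, while the Dll1+ only share stays at or under 7.27%.

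Seen from the site, 42.3% of the 20482 distal regions with a TRE were Dll1- only, 55.4% were shared and 2.27% (465 regions) were Dll1+ only. Without a TRE the same classes held 23.1%, 65% and 11.9% of 82340 regions. These shares restate the choice of the members and carry no test.

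The nearest TRE of members most often lay close to the summit. It lay within 10 bp in 22.5% of members, within 25 bp in 50.9% (49.8 to 51.9%) and within 50 bp in 80% (79.2 to 80.9%). Single sites spread evenly over the window would place 26.2% of centers within 25 bp. The nearest of several sites lies closer by itself, and 2 or more TREs were held by 12.2% of members but 2.37% of Dll1+ only regions with a TRE, so these shares are not fully alike. Within 25 bp the share was 46.5% in shared regions with a TRE and 37.6% in Dll1+ only regions with a TRE. The distances of members fell off steadily, from 20.3% of regions at 0 to 9 bp to 2.04% at 90 to 97 bp. In the Dll1+ only regions the fall was shallower, from 15.7% to 4.52%.

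**Figure D2:**
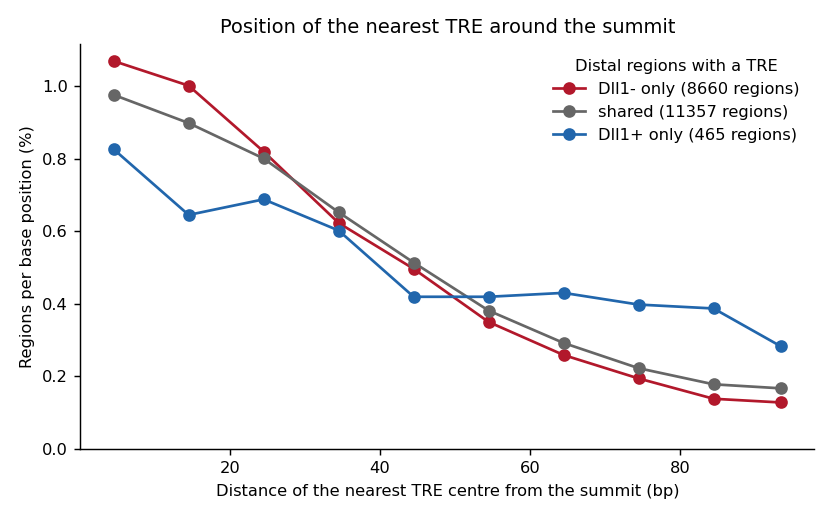
Distance of the nearest TRE center from the summit (x axis, bp, in bins of 10 bp and a last bin of 8 bp) against the percent of regions per base position (y axis), for distal regions with a TRE in the 3 classes. The curve of the 8660 Dll1- only regions is the steepest, and that of the 465 Dll1+ only regions the flattest.

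Most members held a single site. There were 7604 members with 1 TRE, 991 with 2, 49 with 3, 9 with 4, 5 with 5 and 2 with 6. At least 2 TREs were found in 12.2% (11.5 to 12.9%) of members, in 9.18% of shared regions with a TRE and in 2.37% of Dll1+ only regions with a TRE. Where a member had 2 TREs, the centers lay a median of 55 bp apart, with quartiles of 29 and 84.5 bp, and 148 of the 991 pairs lay within 20 bp. No single distance stood out, since the commonest distances of 17, 46 and 69 bp were each met in 17 members. The repeat windows shown above, with a fixed step, are therefore exceptions among the members.

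The bases just beside the site were uneven. On the strand that reads TGACTCA, the base before the site was T in 6.47% of members, against A in 32.1%, C in 25.2% and G in 36.2%, and the base after it was A in 8.76%. Shared regions with a TRE were alike, with T before the site in 7.41% and A after it in 9.46%, so the unevenness was not a trait of members alone. The base before and the base after are mirror positions of the palindrome, and the base each seldom held is the complement of the other's. The form TTGACTCAA, with both disfavored bases, was the site nearest to the summit in 54 members (0.624%, 0.478 to 0.813%), in 0.925% of shared regions with a TRE and in 2.8% of Dll1+ only regions with a TRE. The commonest forms in members were GTGACTCAC (11.4%), GTGACTCAG (11.4%) and ATGACTCAG (10.8%). A GC next to the site, the longer element of NF-E2 and MAF factors, was present in 15.1% (14.4 to 15.9%) of members and in 16.7% of shared regions with a TRE.

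Shared distal regions, which are not members, also differed with the site, though the same fold values and site search as in the rule describe them. The site was sought at the summit of the row with the highest fold in either list, and a percentile depends on which other regions its list holds. For each of them the percentile in the Dll1+ list was subtracted from the percentile in the Dll1- list. The median difference was 0.41 points in the 53556 shared regions without a TRE and 8.35 points in the 11357 with a TRE. The region stood higher in the Dll1- list in 52% (51.6 to 52.4%) of the former and in 79.2% (78.4 to 79.9%) of the latter. Within bands of mean percentile, regions with a TRE stood higher among Dll1- rows in 74.7% to 83.5% of cases and regions without a TRE in 50% to 53.5%. The difference was thus present in each band under this site search. With any summit searched, 13718 shared regions held a TRE, so some of those without one here have a site at a weaker summit. The difference was not computed with that search.

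The median difference was larger with more sites and with sites nearer to the summit. It was 7.88 points with 1 TRE, 12.9 with 2 TREs and 19 with 3 or more TREs, the last from 74 regions. The share standing higher in the Dll1- list was 77.9%, 92.6% (90.7 to 94.1%) and 91.9% (83.4 to 96.2%), with no rise beyond 2 TREs. The median difference was 9.28 points where the nearest TRE lay within 25 bp, 8.42 at 26 to 50 bp and 6.47 beyond 50 bp. The shares standing higher were 80.9% (79.8 to 81.9%), 79.2% (77.8 to 80.5%) and 75.8%, and the intervals given overlap. Among shared regions with a single TRE the form ATGACTCAG gave a median of 9.55 points over 982 regions. The form TTGACTCAA gave -0.407 points over 96 regions, of which 45.8% (36.2 to 55.8%) stood higher in the Dll1- list, as in shared regions without a TRE. The other 15 forms had medians from 4.26 to 9.55 points. The form that was scarce in members was thus also the form without a shift in the shared regions.

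**Figure D3:**
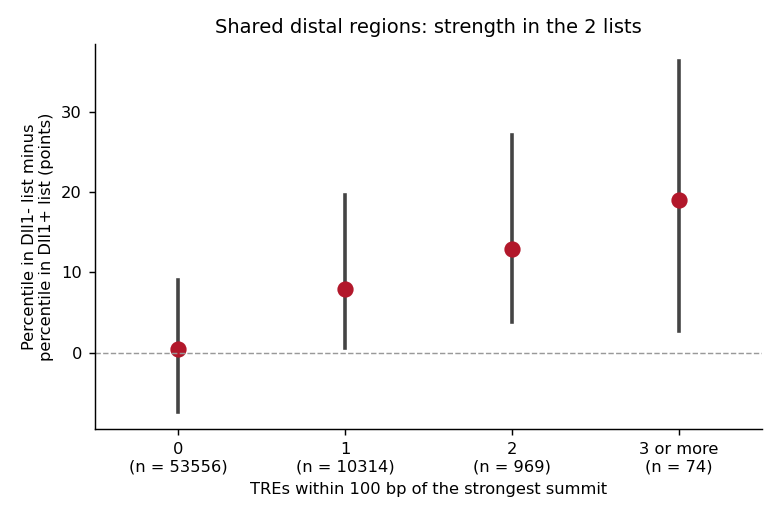
Percentile in the Dll1- list minus percentile in the Dll1+ list (y axis, points) for shared distal regions with 0, 1, 2 or at least 3 TREs within 100 bp of the strongest summit (x axis). Dots are medians and lines run from the lower to the upper quartile. The median runs from 0.41 points without a TRE to 19 points with 3 or more.

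Other motifs were counted in the same window on both strands. The letters searched were TGACGTCA for the cAMP response element (CRE), which differs from the TRE by an added middle base, TGTGGTT for RUNX, CATTCCA for TEAD, CAGGAAG for ETS, TGTTTAC for FOX, ACAATGG for SOX, AGATAAG for GATA, TTGCNNCAA for CEBP, GTGGGAA for RBPJ, the DNA-binding partner of Notch, and GGGANTTCC for NF-kB. Further letters were TTCNNNGAA for STAT factors, AGGGGGC for the CTCF core, TTGGCA for the core of an NFI site, AACCGGTT for GRHL, CAGGTG for ZEB or SNAI, CAGCTG for the E-box of other helix-loop-helix factors, CACGTG for that of MYC, GGGNGGGG for KLF or SP, ATGCAAAT for POU, GCCNNNGGC for TFAP2 and ACGTGC for HIF. A match can share a few end letters with a TRE, and it is a description of letters, not a bound site.

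None of these motifs was more frequent in members than in all distal regions beyond counting error. The interval of members lay below the share over all distal regions for 13 of the 21 motifs, held it for 8 and lay above it for 0. The CTCF core was found in 2.07% (1.79 to 2.39%) of members and in 4.21% of all distal regions, and the shared regions with a TRE were also low, at 2.39%. The NFI core was found in 12.8% (12.1 to 13.5%) of members, in 20.3% of shared regions with a TRE and in 21.7% of all distal regions. NFI factors bind many epithelial enhancers, and the low share was seen also in Dll1- only regions without a TRE, at 17.7%. SOX letters were present in 3.15% of members against 4.64% of all distal regions, TFAP2 letters in 7.67% against 10.2%, and GRHL letters in 0.15% against 0.286%.

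The letters for NF-kB were found in 1.19% (0.982 to 1.44%) of members and in 1.17% of all distal regions. Those for RBPJ were found in 4.73% (4.31 to 5.2%) and 4.39%. The TEAD letters were found in 5.43% of members and 5.67% of all distal regions, and the CRE in 0.393% and 0.58%. Set against shared regions with a TRE alone, the interval of members lay above for 2 motifs, RBPJ (4.21% in the shared regions) and POU (1.04%, 0.846 to 1.28%, against 0.775%), and below for 8. Dll1- only regions without a TRE had similar shares of both, 4.66% (4.37 to 4.97%) for RBPJ and 0.936% (0.808 to 1.08%) for POU.

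**Figure D4:**
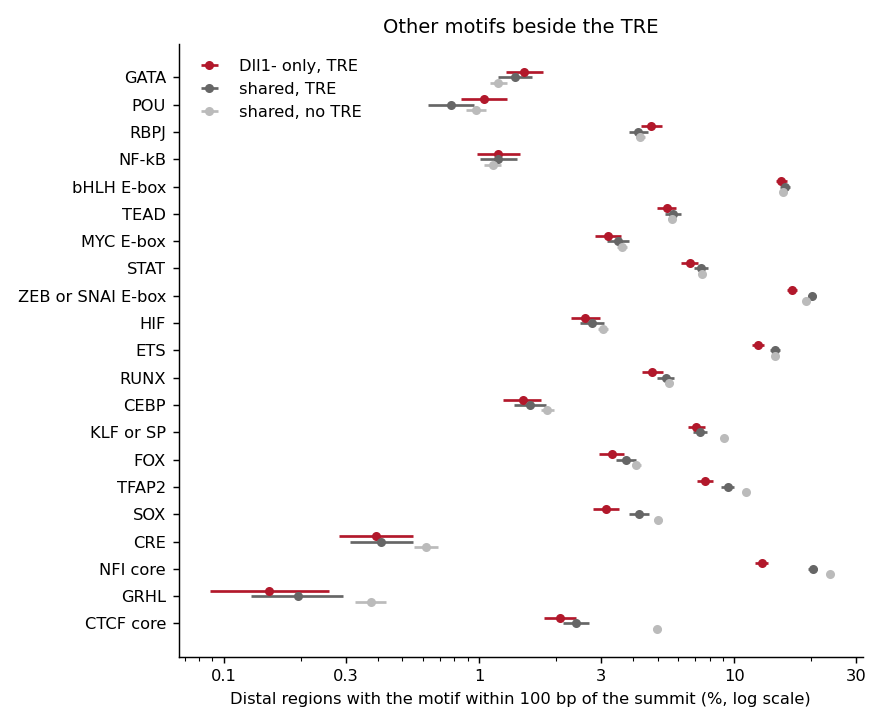
Percent of distal regions with each of 21 motifs within 100 bp of the strongest summit (x axis, log scale) for Dll1- only regions with a TRE, shared regions with a TRE and shared regions without a TRE; bars are 95% Wilson intervals and motifs are ordered by the ratio of members to all distal regions. The CTCF core, at 2.07% in members, and the NFI core, at 12.8%, stand among the motifs lowest in members relative to all distal regions.

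By position, 55.3% of members lay in introns, 40.3% between genes, 1.29% in coding exons, 1.64% in untranslated regions and 1.56% in non-coding exons. Shared regions with a TRE were placed alike, with 54.8% in introns and 40.7% between genes. The nearest protein-coding TSS was a median of 33010 bp away, and 37.9% of members lay over 50 kb from any. The window around the summit had a median GC content of 48.8%, and 3.43% of members lay mostly in soft-masked repeats. The share of distal regions that were members ran from 7.4% on chromosome 19 to 9.12% on chromosome 14 among the autosomes and chromosome X, and no member was found among the 5 distal regions of chromosome Y.

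The nearest row of the Dll1+ list was a median of 5340 bp away from a member. In 703 members (8.12%) it lay within 500 bp, in 66 within 100 bp, and the shortest gap was 2 bp, near Mtcl1. Near the TSS limit, the members closest inside were those of Trpv3 (1011 bp, fold 2.73), Psap (1012 bp, fold 2.87) and Lrrc8b (1016 bp, fold 2.25), and the regions closest outside were those of Slc7a4 (995 bp, fold 3.46), Hccs (992 bp, fold 2.6) and Slc25a51 (986 bp, fold 3.07). Near the window limit, 133 members had their nearest TRE center at 92 to 97 bp, with a median fold of 3.66, and 93 Dll1- only distal regions with a center at 98 to 103 bp, with a median fold of 4.02, fell outside.

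The strongest 12 members outside chromosome 18 and outside untranslated regions had folds from 13.5 to 16.2 and 110 to 144 reads at the summit. Of these, 9 lay in introns and 3 between genes, 3 held 2 TREs, and 7 had a TRE within 25 bp of the summit. Their nearest Dll1+ rows were 4539 to 70651 bp away. The first was the member at chr1:156667478-156667871, 6639 bp downstream of the TSS nearest to it, that of the torsin family ATPase gene Tor3a, with 135 reads over a background of 7.38. The member at chr16:93927605-93927984 lay in an intron 1772 bp from a TSS of Cldn14, a claudin of tight junctions, with 140 reads over 7.91. The others lay nearest to S100z, Lrrn3, Pcnx, Ldah, Ipo9, Kif2a, Cracr2a, Podxl, Glod5 and Atp6v1g1. Podxl, which encodes the sialomucin podocalyxin, was 172318 bp from its member.

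Members were spread over the genome, with a median of 56612 bp to the next member, and 14.3% had another within 10 kb. Chains of at least 4 members at gaps of at most 50 kb numbered 174 and held 800 members. The longest chain, at chr8:35959500-36172577, held 9 members, 7 of them nearest to Prag1, a pseudokinase scaffold gene, together with 14 shared and 4 Dll1+ only regions. A chain of 8 members at chr17:83992965-84196242 included 6 nearest to Zfp36l2, whose product binds AU-rich mRNA. A chain of 7 at chr2:167550459-167672758 included 3 nearest to Snai1, a repressor of epithelial genes. Each of these 3 chains also held shared regions, so that they are loci open in both populations in which some regions had rows of the Dll1- list only.

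Nearest genes were assigned by the closest protein-coding TSS, which does not show that a region acts on that gene. A member said to be at, near or of a gene is one assigned to it in this way, at any distance. A total of 5346 genes were nearest to at least 1 member, 3474 of them to exactly 1 and 169 to at least 5. The 12 genes with the most members together had 115, of which 36 lay within 50 kb of the TSS, among 659 distal regions. Adgrl2, an adhesion G protein-coupled receptor, had 13 of 121 distal regions (10.7%). Irx3, an Iroquois homeobox factor, had 11 of 43 (25.6%), and Sox9, a SOX factor of mammary progenitors, had 11 of 63 (17.5%). Klf5, a zinc finger factor of epithelia, had 10 of 49 (20.4%), none of them within 50 kb. Members made up 17.5% of the distal regions of the 12 genes, which were picked for their number of members.

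The remaining genes in this group were Ankrd55, the transcription factor gene Ets1, Rbms3, the E protein gene Tcf4, Trib2 and Zfp36l2 with 9 members each, and Ank2 and Arhgap42 with 8 each. The strongest member near Klf5, at chr14:99373712-99374052, had a fold of 13.2 with 109 reads, and a TRE 21 bp from the summit. The strongest near Ets1, at chr9:32816704-32817219, had a fold of 12.3 with 100 reads and 2 TREs. The strongest near Irx3, at chr8:91937249-91937581, had a fold of 10.1 with 82 reads. Dll1+ only regions with a TRE made up 3 of the 659 distal regions of these genes (0.455%), near their share of all distal regions (0.452%).

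The genes of AP-1 itself were nearest to 12 members of 139 distal regions (8.63%, 5.01 to 14.5%), close to the 8.42% over all distal regions. Within 50 kb of the TSS the count was 6 of 96 (6.25%, 2.9 to 13%), against 8.26% of all distal regions. Fosl2 had 5 members, Jun and Atf3, a stress-induced partner of AP-1, had 2 each, and Fos, Batf and Batf3 had 1 each. No member was nearest to Fosb, Fosl1, Junb, Jund, Jdp2 or Batf2. The 5 members of Fosl2 had folds from 3.29 to 4.27, and 1 of them lay within 50 kb of its TSS. The member of Fos, at chr12:85519620-85519903, held 95 reads over a background of 16.9 and 2 TREs. Early response genes, which growth factors induce quickly, were near 55 members of 702 regions (7.83%, 6.07 to 10.1%), with 8 at Myc, 6 at the MAP kinase phosphatase gene Dusp4 and 4 each at Ccn2 and Dusp6.

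Lists of known AP-1 target families and signaling pathways were read against the same 8.42%. Integrins and CD44, the receptors for the extracellular matrix, had 23 members of 185 (12.4%, 8.43 to 18%), with 4 at Itgav, 3 each at Itga2 and Itgb1 and 2 at Cd44. That interval only just cleared the share over all distal regions and held it under 4 of 6 alternatives, for example after scaling (8.03 to 17.4% against 8.41%). Matrix proteases and their inhibitors had 17 of 162 (10.5%), with 3 at Adam12 and 2 each at Adamts5, Mmp7 and Timp3. ErbB receptors and ligands had 17 of 165 (10.3%), with 4 each at the ligand genes Btc and Nrg1, 3 at Egfr and 2 at Erbb4. The TGF-beta pathway had 31 of 370 (8.38%), with 6 at the inhibitor Smad7, 5 each at Inhba and Tgfb3 and 4 at Tgfb2. Transcription factors of the epithelial-mesenchymal transition (EMT) had 16 of 115 (13.9%, 8.75 to 21.4%), with 5 at Twist2, 4 at Zeb2 and 3 each at Snai1 and Zeb1. Within 50 kb of the TSS the EMT interval held the overall share (4.67 to 26.6% against 8.26%). None of the members at Erbb4, Inhba, Tgfb2, Zeb2 or Zeb1 lay within 50 kb of the TSS, and those at Zeb2 were 585 to 1254 kb away.

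Notch genes had 18 members of 298 regions (6.04%, 3.85 to 9.34%), and 8 of the 18 were nearest to the ligand gene Jag1, where members made up 20% of 40 distal regions. Maml3, a coactivator of Notch, had 4, Rbpj had 2, and Dll1 itself had 1. The Dll1 member, at chr17:15280244-15280525 and 95591 bp from the TSS, was weak, with a fold of 1.84 and 106 reads over a local background of 57.2 reads. The strongest Jag1 member, at chr2:137204433-137204851, had a fold of 6.71 with 54 reads over 7.2. NF-kB genes had 9 members of 126 (7.14%, 3.8 to 13%), 2 each at Nfkb1, Nfkbiz and Tnfaip3 and 1 each at Ikbke, Rel and Rela, the last 2 named after their values were seen. The intervals of the Notch and NF-kB lists held the value over all distal regions.

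Marker genes of mammary and stromal cell types gave the widest spread. Luminal genes had 16 members of 334 regions (4.79%, 2.97 to 7.64%), with 4 at the luminal regulator Gata3 and 2 each at Ehf, Epcam and Grhl2. The Gata3 members lay 102 to 737 kb from its TSS. Basal genes had 22 of 201 (10.9%, 7.34 to 16%), with 6 at Trp63, a basal transcription factor, 3 at Egfr and 2 at Itga6. Fibroblast genes had 36 of 219 (16.4%, 12.1 to 21.9%), with 5 each at Fn1 and Twist2 and 3 each at Col5a1 and Col6a2. Dcn had none among 18 distal regions and Prrx1 none among 12, and Fap, Lum, Lox and Pi16 had none. Endothelial genes had 19 of 124 (15.3%, 10 to 22.7%), with 3 each at Cdh5, Eng and Flt1 and 2 at Erg. At least 1 member was assigned to 9 of 23 luminal, 10 of 18 basal, 18 of 24 fibroblast and 11 of 15 endothelial genes. The lists overlap in some genes. The EMT and fibroblast lists share Twist1, Twist2 and Prrx1, so their values rest in part on the same regions. Of these 4 intervals the luminal one lay below 8.42%, the fibroblast and endothelial ones above it, and the basal one held it. The luminal interval held the share over all distal regions when only regions within 50 kb of a TSS were counted (2.41 to 8.41% against 8.26%), when specific regions had to exceed the median fold of their list (0.467 to 3.04% against 2.63%) and at 1 limit after scaling (1.02 to 4.26% against 3.23%), and the endothelial interval held it at that last limit (2.76 to 11.2%).

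Dll1- only regions without a TRE were placed in part alike. They made up 31.6% (21 to 44.5%) of the pericyte regions, 29.2% (23.6 to 35.6%) of the fibroblast regions, 12% (8.92 to 15.9%) of the luminal regions, 15.9% of the basal regions and 17.7% (12 to 25.4%) of the endothelial regions, against 18.5% of all distal regions. The high fibroblast and low luminal shares were thus present in the Dll1- only class with and without the site.

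Smaller lists had wide intervals. Immune genes had 7 of 52 (13.5%), with 2 at Ptprc and 1 each at Cd74 and Csf1r. The Ptprc members lay 239 to 312 kb from its TSS. Adipocyte genes had 7 of 56 (12.5%), with 2 each at Cebpa and Pparg and 1 each at Adipoq and Cd36. Pericyte genes had 5 of 57 (8.77%), 1 each at Abcc9, Cspg4, Higd1b, Notch3 and Pdgfrb. The strongest member near Twist2, at chr1:91858117-91858720, had a fold of 10.6 with 86 reads, and that near Snai1, at chr2:167552846-167553444, had a fold of 10 with 103 reads. Near the fibroblast gene Col6a2 the strongest member, at chr10:76648695-76649218, had a fold of 8.42 with 68 reads and 2 TREs.

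**Figure D5:**
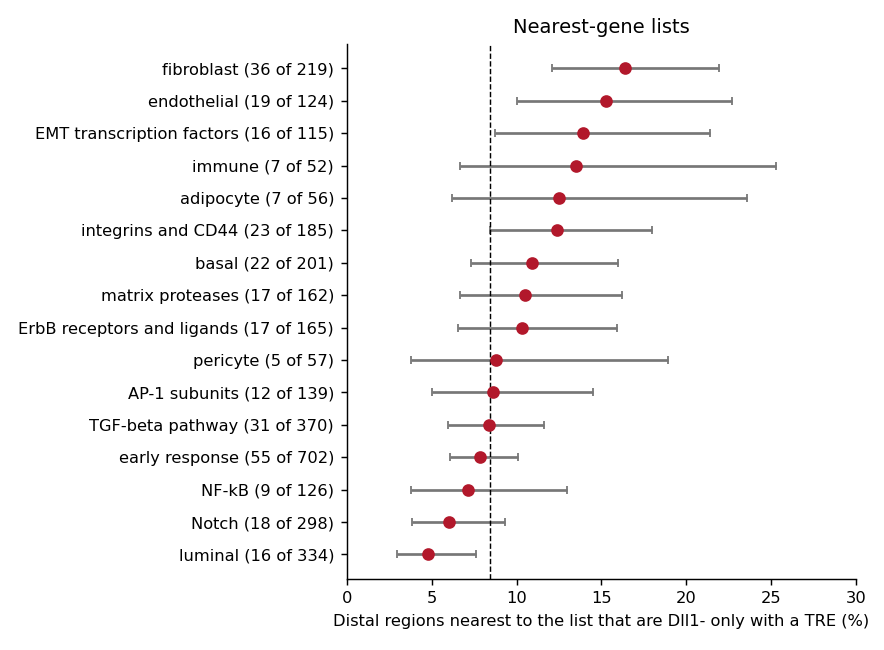
Percent of the distal regions nearest to each gene list that are Dll1- only with a TRE (x axis), with the counts beside the list names (y axis). Points are shares, bars 95% Wilson intervals, and the dashed line marks the 8.42% over all distal regions. The fibroblast list is the highest at 16.4% and the luminal list the lowest at 4.79%.

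The promoters of the same markers were open to different extents. A row within 1000 bp of a TSS was present for 21 of 23 luminal genes in each list and for 13 of 18 basal genes in each list. For fibroblast genes it was present for 17 of 24 in the Dll1- list and 10 of 24 in the Dll1+ list, and for pericyte genes for 7 of 9 and 3 of 9. For endothelial genes it was present for 3 of 15 in each list, and for immune genes for 5 of 20 and 4 of 20. Over all 21840 protein-coding genes, 64.7% had such a row among the Dll1- peaks, as did 61.9% among the Dll1+ peaks. Fibroblast promoters with a row in the Dll1- list alone stood at percentiles from 14.8 (Fap) to 51.6 (Col1a2) of that list, and Prrx1 had a row in the Dll1+ list alone. The Dll1+ data were the shallower ones, which can leave a weak promoter without a row there. Depth, a larger share of cells of a type and more open chromatin per cell cannot be told apart in these pooled lists. The part that stromal cells have in the members was not tested.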

How the data were processed

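ATAC-seq was made from 7 sorted tumor cell samples, 4 Dll1- and 3 Dll1+. Per the methods of the study, the authors handed all replicates of a group jointly to the ENCODE pipeline for ATAC-seq. They deposited 2 pooled peak lists (mm10, GRCm38 per the submitters' processing notes). The aligner and peak caller settings are not given in the sources used here, nor is the depth per sample. The deposited lists hold a fold enrichment (a ratio of the summit over the local background), −log10 p-values, −log10 q-values that were not used, and a score that follows the p-value; coordinates are printed counting from 1.

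Rows that overlapped or touched were joined and classed by list, with Python 3.11.15, numpy 2.4.6, pandas 2.3.3 and scipy 1.17.1. A region was distal when its midpoint lay over 1000 bp from every TSS of a protein-coding transcript (GENCODE M21, basic set), and the TRE was read from the GRCm38 reference within 100 bp of the summit of the row with the highest fold. Reads and background were recovered from fold and p under a Poisson model with 1 added to both, which could be solved for all rows but 1 of the Dll1- list. The model is an assumption, since the peak caller is not named in the sources; data simulated under it tested the arithmetic only. Named were the 12 strongest members and the 5 with the most TREs (none on chromosome 18 or in an untranslated region), the 12 genes nearest to the most members, every AP-1 gene, up to 4 genes with the most members of each gene list, and the members at the limits of the rule. Some genes that this rule names are not reported here. Further genes and single chains were picked after their values were seen. The members, gene lists and motifs were chosen with earlier results of these data known. No p-value was computed, because each group is 1 pooled list. A share is given with its 95% Wilson interval. The reads had no molecular identifiers, and such an interval covers counting error alone.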

Additional observations from a re-analysis of the deposited data

How the results depend on the processing

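The number of members stayed within 1.5 times of 8660 under 8 of the 10 other settings and was 2703 where specific regions had to exceed the median fold of their own list. There, 42.9% of Dll1- only and 3.07% of Dll1+ only distal regions held a TRE, and 53.6% of members had a TRE within 25 bp. At 1 limit for both lists after scaling by the background floor, an alternative chosen after seeing the data, 3319 members remained, with 41.9% and 4.01% of regions holding a TRE and 54.1% of members near the summit. A window of 50 bp gave 24.2% for Dll1- only, 12.9% for shared and 2.78% for Dll1+ only regions, with 65.6% of members near the summit. Counting any summit gave 32.2%, 21.1% and 5.02%. Equal numbers of rows gave 32.9% of Dll1- only regions and 51.9% of members near the summit, and regions over 500 bp from the other list gave 31.8%. Class and site define the members, so these shares describe the choice and are no sign of its stability.

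Of the 16 gene lists, 10 kept the side of their value against the share over all distal regions under all 6 alternatives, the fibroblast, endothelial, EMT, integrin, matrix protease, immune, adipocyte, luminal, Notch and NF-kB lists. The AP-1 and TGF-beta lists kept it under 3 of 6. Intervals that lay clear of that share in the main values held it under 3 alternatives for the luminal list, 1 for the endothelial, 1 for the EMT, 4 for the integrin and 0 for the fibroblast list. No paired analysis was possible because each population is 1 pooled list, and leaving out each replicate could not be run for the same reason. Summits with few reads limit what the absence of a row in the other list can show.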
